A study of Mus musculus with 2 samples.

Results

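The genes described here encode collagens, laminins and other proteins of the extracellular matrix. They were taken by gene symbol: every collagen chain gene, every laminin chain gene, and decorin (Dcn), biglycan (Bgn), lumican (Lum), fibronectin (Fn1), fibrillin (Fbn1), Sparc, the nidogens Nid1 and Nid2, and perlecan (Hspg2). On the array 118 probe sets of 60 such genes carried a single gene symbol, out of 34945 probe sets of 18193 genes. Of the 60 genes, 42 were collagen genes and 10 laminin genes. Fbn1 and the chains Col21a1, Col6a6, Col28a1 and Lamb4 were not analysed here.

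RNA of hand-picked pancreatic islets was measured on Affymetrix arrays, with 1 array for wildtype islets of littermate controls and 1 array for islets labelled as a b cell-specific ZBTB20 knockout. Both groups were 2 to 3 months of age, on a mixed background. After collagenase digestion the islets of both groups were cultured overnight and frozen. Collagenase is an enzyme that digests collagen and frees the islets from surrounding tissue. The labels do not name the promoter that drove the deletion, the allele or the number of animals per array. The study asked which genes depend on ZBTB20, a zinc finger transcription factor, in beta cells.

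The matrix around islets has 2 main forms. Fibrillar collagens, with type I and III as the most common, assemble into cross-banded fibrils in connective tissue, and small proteoglycans such as decorin and lumican bind to these fibrils. Basement membranes are thin sheets built from a laminin network and a collagen IV network, which nidogens and perlecan join. Beta cells lie against the basement membrane of islet capillaries, and endothelial cells are a known source of its collagen IV and laminin in mouse islets. Fibrillar matrix is mainly made by fibroblasts and stellate cells. The arrays measured whole islets, so these cells contributed RNA beside the endocrine cells. Fewer cells of a type and less RNA per cell cannot be told apart in such samples.

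Values are MAS5 signals, linear intensities that combine the probes of a probe set. The median signal of all probe sets was 21.6 on the control and 21.7 on the knockout-labelled array and was used as a floor. Each log2 ratio, knockout-labelled over control, was taken with lower signals set to that floor. The brightest probe set stood for a gene, which counted as measured when above the floor on at least 1 array. A gene above it on a single array has a bound in place of a ratio, written as "at least". A gene was counted as lower or higher from a 2-fold ratio on. Each group has a single array, hence no replicates and no test, so every difference compares 2 RNA preparations, and genotype and preparation cannot be told apart.

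The hormone genes of an islet preparation gave some of the highest signals on both arrays, with control and knockout-labelled values of 9194 and 7786 for Ins2, 11215 and 10292 for Gcg and 9661 and 9770 for Sst. Of 11 endocrine cell marker genes 10 were measured and none reached 2-fold, with a median log2 ratio of -0.04 that was 0.07 with quantile normalization. Their largest log2 ratios were -0.65 for the hormone gene Ppy (signals 12702 and 8095) and 0.52 for the glucose transporter gene Slc2a2 (276 and 396). The 9 probe sets of the targeted gene Zbtb20 did not move together, with 5 lower and 4 higher in the knockout-labelled islets and a median log2 ratio of -0.062. A probe set outside the deleted part checks nothing, and other islet cells keep the gene, so the label is kept as "knockout-labelled".

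Most matrix genes were near the lower end of the signal range. Of the 60 genes, 26 were measured and 34 had every probe set under the floor on both arrays. Among the measured genes 4 were at least 2-fold lower in knockout-labelled islets (15.4%), where 1.44% of all 11802 measured genes were. These 4 genes were Dcn, Lama3, Lama5 and Col3a1. None of the 26 was at least 2-fold higher, where 1.82% of all genes were. The log2 ratio was below 0 for 19 of the 26, against 49.8% of all genes, and the median was -0.22, against 0 for all genes. That share was smaller when weaker signals were let in, with 29 of 50 members (58.0%) at a floor at the 30th percentile and 34 of 60 (56.7%) with a pseudocount of 16 in place of a floor, against 49.9% of all genes under both. Dcn, Lum, Fn1 and Col6a1 passed the floor through the control array alone, and so had to be lower, and Col22a1 passed through the knockout-labelled array alone. Of the 21 members above both floors, 3 were at least 2-fold lower, against 1.34% of the 10450 such genes, and 15 had a ratio below 0, against 50% of them. Division by the array median, quantile normalization and loess left all 19 below 0, turned Col4a2, Col5a3 and Lamb1 below 0 each under at least 1 of them, and kept 4 genes above 0.

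**Figure D1:**
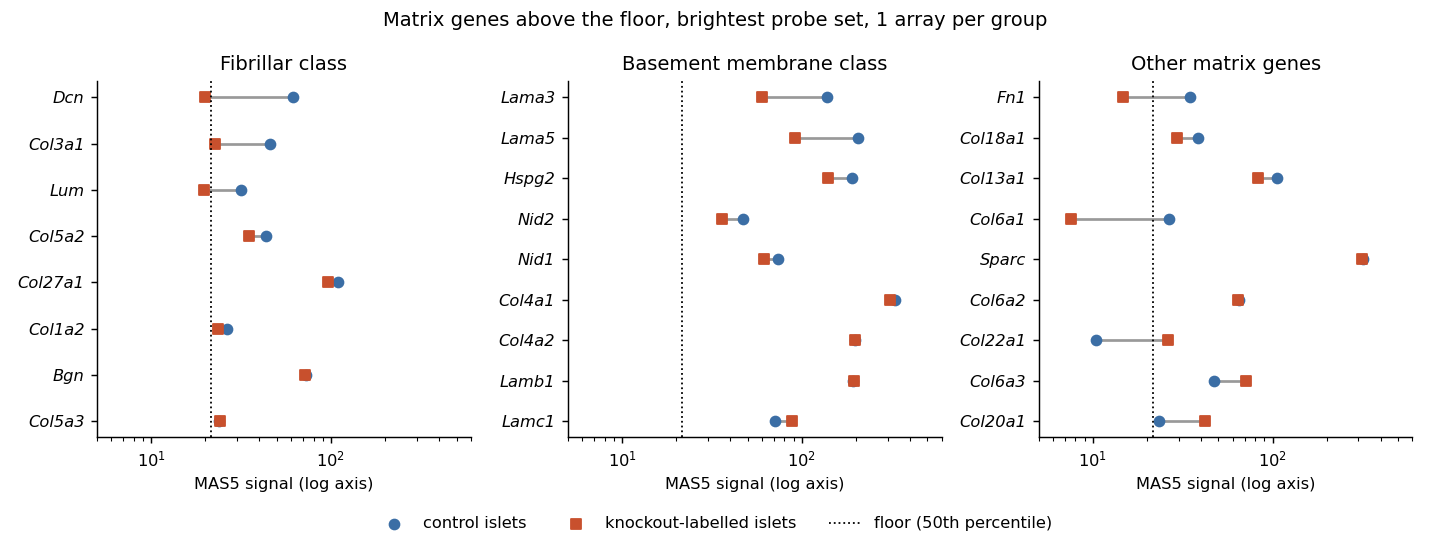
MAS5 signals (log axis) of the 26 matrix genes above the floor in control islets (blue circles) and knockout-labelled islets (red squares), 1 array each; the dotted line marks the control floor of 21.6. Dcn, Col3a1, Lama3 and Lama5 are the 4 genes counted at 2-fold, while Col4a1, Col4a2, Lamb1, Sparc and Bgn nearly coincide.

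Laminin chain genes gave the clearest split by role. A laminin is a cross-shaped trimer of an alpha, a beta and a gamma chain, and the alpha chain carries most of the sites that cell receptors bind. Both measured alpha chain genes were lower and the measured beta and gamma chain genes were not. Lama5 (probe set 1427009_at, gene at chr2:180176373-180225904, GRCm38.p6), which encodes the alpha chain of the main laminins of mature vascular and epithelial basement membranes, gave 204.5 in the control and 91.5 in the knockout-labelled array, 2.23-fold lower. Lama3 (1427512_a_at), an alpha chain of epithelial basement membranes, was at 137 and 60.3, 2.28-fold lower. Both signals on the knockout-labelled array were well over the floor of 21.7, and both ratios lay outside the central 95% of all genes, which ran from -0.83 to 0.89 on the log2 scale. The other 2 probe sets of Lama5 and the other 1 of Lama3 were under the floor on both arrays, so each ratio rests on 1 probe set.

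Lamb1, the beta chain that pairs with the Lama5 product in the common islet laminins, was at 193 and 194.5 in its brightest probe set (1424114_s_at). Its 2 weaker measured probe sets disagreed, at 49.7 and 37.1 (log2 ratio -0.42) and at 36.5 and 53.6 (0.55). Lamc1, the most widely used gamma chain, was at 70.7 and 88, a log2 ratio of 0.32. A second Lamc1 probe set went from 13.9 to 31.2 and was above the floor on the knockout-labelled array only. Lama1, Lama2, Lama4, Lamb2, Lamb3 and Lamc3 were under the floor on both arrays. Lama4 is the other alpha chain known from blood vessels, and Lamb3 is the usual beta partner of Lama3, so neither can be set beside the 2 lower alpha chains.

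The stretches upstream of Lama5, of its partner Lamb1 and of Hspg2 are shown because these 3 genes build 1 structure yet had log2 ratios of -1.16, 0.01 and -0.46. They are the bases of the RefSeq promoter windows (GRCm38.p6) that precede the annotated gene, with GC boxes (GGGCGG on either strand) in capitals. Lama5 is read on the minus strand from chr2:180225905-180226109, Hspg2 on the plus strand from chr4:137468553-137468750 and Lamb1 on the plus strand from chr12:31265043-31265145.
Lama5: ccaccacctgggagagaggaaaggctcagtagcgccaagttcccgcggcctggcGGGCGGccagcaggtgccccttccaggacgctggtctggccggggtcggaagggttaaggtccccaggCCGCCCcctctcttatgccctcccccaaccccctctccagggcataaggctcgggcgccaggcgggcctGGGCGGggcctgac
Hspg2: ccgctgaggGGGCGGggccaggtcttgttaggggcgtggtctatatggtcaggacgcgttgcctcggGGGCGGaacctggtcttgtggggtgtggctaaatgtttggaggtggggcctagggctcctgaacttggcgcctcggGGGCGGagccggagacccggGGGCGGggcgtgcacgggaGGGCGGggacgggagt
Lamb1: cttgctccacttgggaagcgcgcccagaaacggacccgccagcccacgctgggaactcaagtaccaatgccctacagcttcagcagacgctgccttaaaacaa
The printed Lama5 stretch held 3 GC boxes in 205 bases, that of Hspg2 5 in 198 bases and that of Lamb1 none in 103 bases. The full Lamb1 window of 250 bases before the start site does hold GC boxes, inside the annotated gene. A CCAAT box (CCAAT on either strand) was found in the Lamb1 stretch and in neither other one, and a TATA box (TATAAA on either strand) in none of the 3.

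RefSeq promoter windows were found for 18 of the 26 measured matrix genes. Over the 250 bases before the start site, 11 of the 18 held a GC box, against 33.0% of all 32536 windows. A CCAAT box was in 7 of 18, against 33.8%, and a TATA box in 2 of 18, Col13a1 and Col3a1, against 12.3%. The letters ACGTG on either strand, the core that hypoxia-inducible factors bind, were in 1 of 18, Col1a2, against 16.7%. The windows of the 18 genes had a median GC content of 62.4%, and all windows one of 52.4%. The 18 genes had 1 window each and were measured here. The windows behind the other shares were not limited to 1 per gene or to measured genes. A match is a run of letters, not a binding site.

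Collagen IV, which forms the second basement membrane network, was close to equal on both arrays in its brightest probe sets. Col4a1 was at 329.8 in the control and 309.9 in the knockout-labelled array (1452035_at), and Col4a2 at 198 and 198.4 (1424051_at). These 2 chains form the trimer found in nearly every basement membrane. Their genes lie head to head on chromosome 8, and their RefSeq spans overlap at the start ends, at chr8:11198423-11312889 and chr8:11312805-11449287. A weaker Col4a1 probe set (1426348_at) went from 190.1 to 109, a log2 ratio of -0.80, so the 2 measured probe sets of Col4a1 differed by 0.71 on the log2 scale. Col4a3, Col4a4, Col4a5 and Col4a6, the chains of more specialised membranes such as that of the kidney glomerulus, were under the floor.

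The linkers of the 2 networks were all lower by less than 2-fold. Perlecan (Hspg2), a large heparan sulfate proteoglycan, was at 191.5 and 139.6, 1.37-fold lower. Its second probe set went from 37.9 to 19.6, at least 1.75-fold lower. Nid2 was at 47 and 36, a log2 ratio of -0.38. Nid1 was at 74 and 61.9 in one probe set and at 41.3 and 32.4 in another, with log2 ratios of -0.26 and -0.35. The 3 genes kept ratios below 0 under all 3 scalings.

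Among fibrillar collagens, the type III chain gene Col3a1 (1427883_a_at, chr1:45311538-45349706) was the only 1 of 5 measured at 2-fold or more. It gave 46 in the control and 22.5 in the knockout-labelled array, 2.04-fold lower and next to the floor of 21.7. Its other probe set was under the floor on both arrays. Col5a2, a minor chain that regulates fibril width, was at 43.5 and 35, and Col1a2, the second chain of type I collagen, at 26.5 and 23.4, near the floor on both arrays. Col5a3 was at 23.8 and 24. Col1a1, usually among the most abundant transcripts of fibroblasts, was under the floor in both of its probe sets, the brighter at 8.9 and 14.9. Also under the floor were Col2a1, Col5a1, Col11a1, Col11a2 and Col24a1.

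Col27a1, a fibrillar collagen first known from cartilage, had 2 measured probe sets that disagreed. The brighter one was at 109.6 and 96.7 and the other (1429549_at) at 60.5 and 28, log2 ratios of -0.18 and -1.11. The second value passed 2-fold and the first did not.

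The small leucine-rich proteoglycans, which coat collagen fibrils and set their spacing, differed among themselves. Decorin (Dcn, 1449368_at, chr10:97479500-97518163) was at 61.6 in control and at 19.8, under the floor, in knockout-labelled islets, which makes it at least 2.84-fold lower, the ratio farthest below 0 of all 26 genes. Lumican (Lum) was at 31.7 and 19.7, at least 1.46-fold lower. Biglycan (Bgn) was at 72.3 and 71.9. Its 2 other probe sets, like the other 1 of Dcn, were under the floor.

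Fibronectin (Fn1), a glycoprotein that links cells to collagen, was at 34.9 and 14.7, at least 1.61-fold lower. Sparc, a collagen-binding glycoprotein made by endothelial and stromal cells, was at 319 and 314, with a weaker probe set at 145.9 and 114.5 (log2 ratio -0.35). The brightest Sparc probe set therefore showed little gap while fibronectin was under the floor on 1 array.

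The remaining collagens pointed both ways. Of the collagen VI chains, which form beaded microfibrils around cells, Col6a3 was higher in the knockout-labelled islets at 47.4 and 71.2 (log2 ratio 0.59), Col6a2 was at 64.7 and 63.8, and Col6a1 went from 26.6 to 7.6, at least 1.23-fold lower. Col6a1 and Col6a2 are neighbouring genes on chromosome 10 whose products join that of Col6a3 in 1 trimer. Col6a1 passed the floor through the control array alone and so had to be lower, and Col6a2 was nearly equal. Whether the 3 partners share a direction therefore cannot be judged. Col18a1, the basement membrane collagen that contains endostatin, was at 38.5 and 29.5 (-0.38), with a second probe set at 23.4 and 14.2. Col13a1, a transmembrane collagen, was at 106.2 and 83.4 (-0.35). Of the fibril-associated collagens, Col20a1 was at 23.3 and 41.9 in 1 probe set (0.85) and at 28.9 and 32.3 in another (0.16), and Col22a1 was above the floor on the knockout-labelled array only, at 26.1. Col20a1 had the largest ratio above 0 of all 26 genes and stayed under 2-fold.

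The under-floor members that are not named above were Col7a1, Col8a1, Col8a2, Col9a1, Col9a2, Col9a3, Col10a1, Col12a1, Col14a1, Col15a1, Col16a1, Col17a1, Col19a1, Col23a1, Col25a1, Col26a1, Col6a4 and Col6a5. The highest signal of any of the 34 genes was 21.1. At this height the arrays give no usable ratio, and a difference in these genes was not detectable.

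Fibrillar genes were set against basement membrane genes. The fibrillar class held the fibrillar collagens, Dcn, Bgn and Lum, and 8 of its 14 genes were measured. The basement membrane class held collagen IV, the laminins, the nidogens and perlecan, and 9 of its 19 genes were measured. Each class had 2 genes at least 2-fold lower and none higher, where 1.44% and 1.82% of all measured genes were, and the value of Dcn in the fibrillar class is a bound. The median log2 ratio was -0.25 in the fibrillar class (range -1.51 to 0.01) and -0.26 in the basement membrane class (range -1.19 to 0.32), a difference of 0.01. With the floor at the 30th percentile the difference was 0.23. The ratio was below 0 for 7 of 8 fibrillar and 6 of 9 basement membrane genes, against 49.8% of all genes. Of the 7, Dcn and Lum passed the floor through the control array alone and so had to be lower. All 9 basement membrane genes were above the floor on both arrays, so the 2 shares are not alike. The 9 members in neither class had a median of -0.02. Col18a1 (log2 ratio -0.38), though a basement membrane collagen, was counted among these 9.

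**Figure D2:**
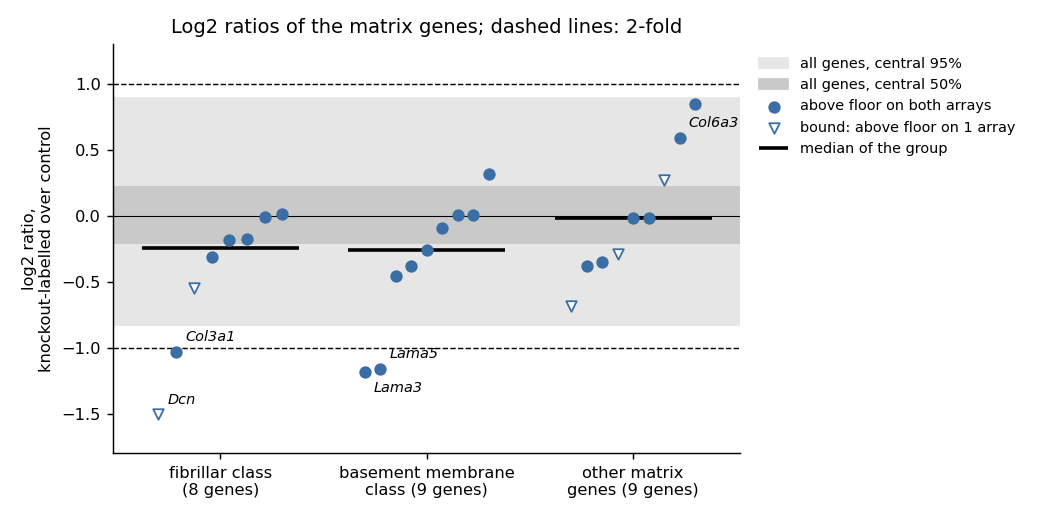
Log2 ratio, knockout-labelled over control, of each measured matrix gene in the fibrillar class, the basement membrane class and the other matrix genes, with the group medians as bars; open triangles are bounds and grey bands hold the central 50% and 95% of all 11802 genes. The medians of the first 2 groups are -0.25 and -0.26, and Dcn, Col3a1, Lama3 and Lama5 lie below the dashed line for 2-fold.

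The classes differed in how firmly their lower genes were measured. Dcn was a bound and Col3a1 lay next to the floor, while Lama3 and Lama5 were above the floor on both arrays. Without the bounds, the fibrillar median was -0.18 and that of basement membrane genes -0.26. Split by the brighter of the 2 signals, 1 of 11 matrix genes up to a signal of 50 was at least 2-fold lower, against 0.822% of all genes of that height. From 50 to 150 it was 2 of 9, against 2.46%, and above 150 it was 1 of 6, against 1.06%.

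Probe sets gave the only guide to measurement error. Over probe sets rather than genes, 36 of 118 were above the floor on at least 1 array, 5 of these were at least 2-fold lower (13.9%, against 1.29% of all probe sets with 1 gene) and none was higher (against 1.88%). For 6 matrix genes with at least 2 probe sets above the floor on both arrays, the SD among the log2 ratios of 1 gene had a median of 0.49. Over 4719 genes of the array it was 0.21. Nid1 (SD 0.065) and Sparc (0.23) had probe sets in close accord, and Col27a1 (0.66), Col4a1 (0.50), Lamb1 (0.49) and Col20a1 (0.49) did not. This spread leaves out variation between animals and preparations.

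**Figure D3:**
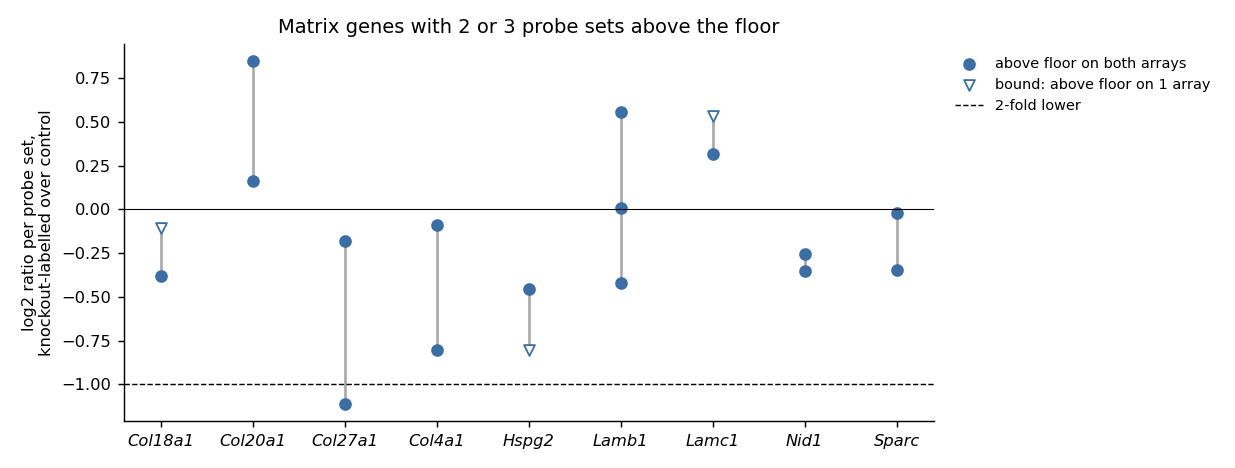
Log2 ratio of every probe set above the floor for the 9 matrix genes that had at least 2 of them; open triangles are bounds. Lamb1 runs from -0.42 to 0.55 and Col27a1 from -0.18 to -1.11, while the 2 probe sets of Nid1 lie 0.093 apart.

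Genes that modify, cross-link and secrete collagen showed no common shift. Of 17 measured genes, 1 was at least 2-fold lower and 1 at least 2-fold higher, where 1.44% and 1.82% of all measured genes were. These all-gene shares apply to the counts of every pathway and marker list at the main settings. The median log2 ratio was 0.01, and -0.02 with quantile normalization. P4ha2, a catalytic subunit of collagen prolyl 4-hydroxylase, which makes the triple helix stable, was at 524 and 217, 2.42-fold lower. Bmp1, the protease that trims the C-terminal propeptide of fibrillar procollagens, was at 99.8 and 271, 2.72-fold higher, and its other measured probe set gave a log2 ratio of 1.39. Plod2 and P4ha1, named after their values were seen, were at 68.6 and 37.4 and at 730 and 524. P4ha1, P4ha2 and Plod2 are known targets of hypoxia-inducible factors. The collagen chaperone Serpinh1 was at 148 and 150.3 and Plod3 at 305 and 307, and the cross-linking enzyme Lox was under the floor. Pcolce, also named after its values were seen, was not counted because its brightest probe set was under the floor. Its other probe set passed the floor through the knockout-labelled array alone, with a log2 ratio of 1.66. With the mean over probe sets, 2 genes of this list were at least 2-fold higher.

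Receptors for the same matrix proteins also had a median log2 ratio near 0, at 0.01 over 15 measured genes, with 1 at least 2-fold lower and 1 higher. Bcam, a surface glycoprotein that binds the laminin chain encoded by Lama5, was at 25.4, near the floor, and 73.5, 2.89-fold higher. Itga6, the alpha subunit of laminin-binding integrins, was named after its value was seen. It was at 234 and 462, 1.98-fold higher and just under the limit, with a second probe set at a log2 ratio of 1.06. Signals of these 2 laminin receptor genes were thus higher on the array on which Lama5 and Lama3 were lower. The laminin receptor genes Itga3 (0.24) and Dag1 (0.17), also named after their values were seen, had smaller ratios, with other probe sets on both sides of 0. Itgb8, a subunit of an integrin that activates latent TGF-beta, was at 212 and 91.3, 2.32-fold lower. Itgb1, the beta subunit shared by most collagen and laminin integrins, was at 604 and 492, and the collagen receptor genes Itga1 and Itga2 were under the floor.

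**Figure D4:**
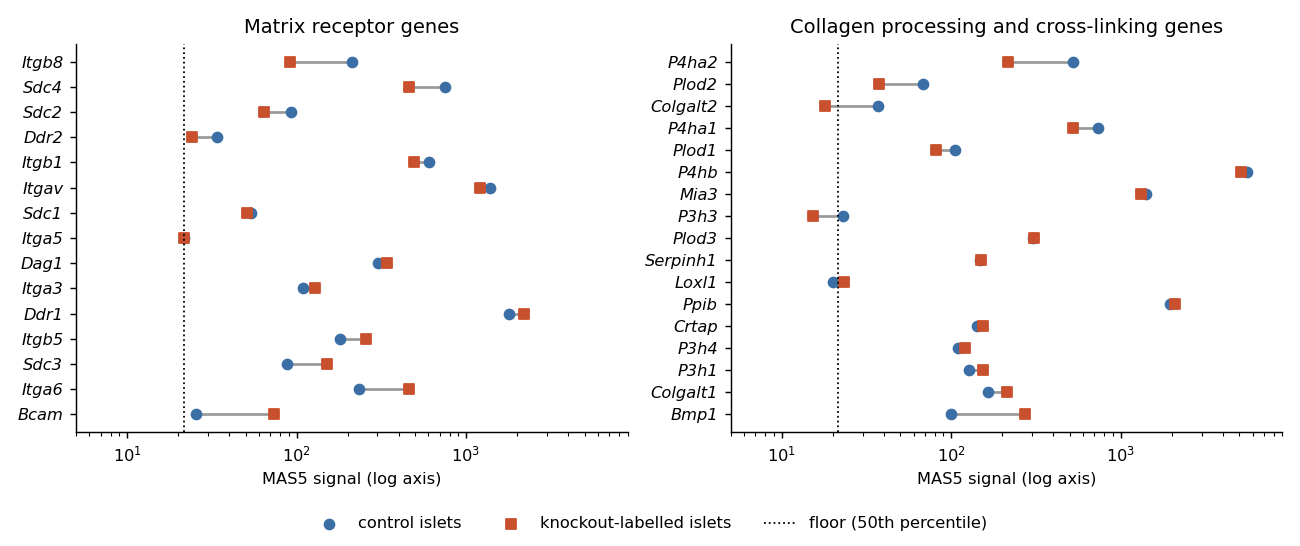
MAS5 signals (log axis) of 15 matrix receptor genes and 17 collagen processing and cross-linking genes in control (blue circles) and knockout-labelled islets (red squares), with the control floor of 21.6 as a dotted line. Bcam, Itga6 and Bmp1 lie to the right on the knockout-labelled array, and Itgb8 and P4ha2 to the left.

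Of 17 measured proteases and inhibitors of the matrix, 2 were at least 2-fold lower and 1 was higher, with a median of 0.0026 that was -0.03 with quantile normalization. The secreted collagenase gene Mmp13 was at 60.8 and 25.7 (2.37-fold lower) and the stromelysin gene Mmp3 at 59.7 and 26.6 (2.24-fold lower). Reck, a membrane-anchored inhibitor of some matrix proteases, was at 42.5 and 90.4 (2.13-fold higher). Each of the 3 had a single probe set. Mmp14, the membrane protease that activates the gelatinase encoded by Mmp2, was at 56.1 and 56.2.

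TGF-beta signalling genes and targets, a group that in many tissues drives fibrillar collagen expression, had 15 measured genes, of which 1 was at least 2-fold higher and none lower, and a median of 0.02. Tgfbi, a secreted protein induced by TGF-beta that binds collagen, was at 77.7 and 243, 3.13-fold higher, and its 3 other probe sets gave log2 ratios from 0.87 to 1.75. Tgfb1 was at 30.3 and 22.8. Among 16 measured matrix proteins outside the rule, Matn2, an adaptor protein of filaments, was the only 1 at 2-fold or more. It was at 113 and 262, 2.32-fold higher, with a second probe set at a log2 ratio of 1.88. The median of this list was -0.09.

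Cell type markers were set beside these values. Of the markers of stellate cells, fibroblasts and mural cells, 8 of 14 were above the floor, 2 of these 8 had a ratio below 0, the median was 0.26 and the summed signal went from 687 to 809. The largest ratios were those of Acta2 (-0.37) and Notch3 (at least 1.40-fold higher), and the defining fibroblast marker Pdgfra was under the floor, as were Tagln, Thy1, Des, Myh11 and Cnn1 in their brightest probe sets. Vim (292 and 349) and Rgs5 (197 and 246) made up most of the sum, and the other probe sets of both genes did not all have a ratio above 0. The part of these cells in the matrix signals was not tested. Endothelial markers were above the floor for 12 of 14, 8 of them with a ratio below 0 and none at 2-fold. Their median was -0.12 and their summed signal went from 1478 to 1416, with Cdh5 at -0.46 and Kdr at 0.83. The endothelial genes Tie1 and Vwf were under the floor. Schwann cell markers were above the floor for 3 of 8, with a median of 0.37, a summed signal from 80.5 to 98.4, and Ngfr (at least 1.65-fold higher) and Erbb3 (-0.22) at the 2 ends.

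Most measured epithelial markers were lower on the knockout-labelled array. Duct cell markers had 6 of 11 above the floor, all 6 with a ratio below 0, against 49.8% of all genes. Their median was -0.30 and their summed signal went from 7139 to 5710, with Krt18, Krt8 and Krt7 making up most of the sum. Car2 was at least 2.66-fold lower, 1 of the 6 against 1.44% of all genes. It passed the floor through the control array alone, and so had to be lower. The duct cell regulator Sox9 was under the floor, as were the duct markers Cftr, Muc1 and Onecut1. Acinar cell markers had 13 of 20 above the floor and 7 at least 2-fold lower, against 1.44% of all genes. Of the 7, Pnliprp1, Ctrl, Cel, Prss2, Cpa1 and Cela1 had the largest ratios. Bhlha15 was the only measured acinar marker with a ratio above 0, at 713.5 and 741.2, and its second probe set gave -0.52. The acinar median was -1.0 and the summed signal went from 47479 to 24830. Macrophage markers were higher for 10 of 11 measured genes, 4 of them at least 2-fold (Mrc1, Fcer1g, C1qb and Tyrobp), against 1.82% of all genes. Fcer1g passed the floor through the knockout-labelled array alone, and so had to be higher. The macrophage median was 0.57 and the summed signal went from 924 to 1470. Most measured acinar and duct markers were thus lower, and most measured macrophage markers higher, on the array with the lower signals of Lama3, Lama5, Dcn and Col3a1. The part of these cell types in those signals was not tested.

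**Figure D5:**
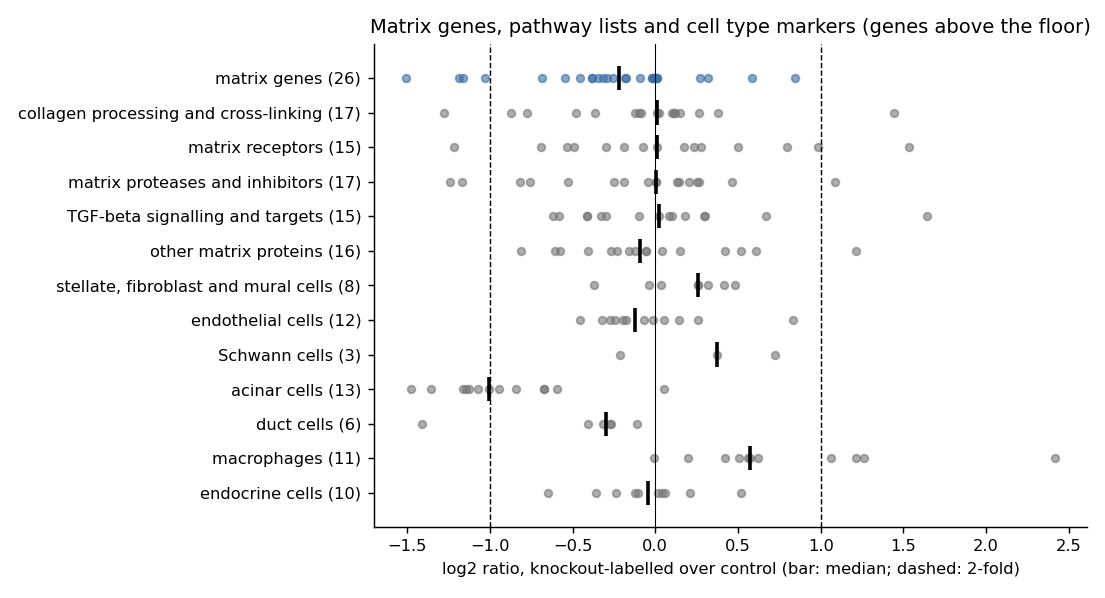
Log2 ratios, knockout-labelled over control, of the measured matrix genes (blue) and of the genes of 5 pathway lists and 7 marker lists (grey), with the number of measured genes in brackets and medians as bars. The matrix median is -0.22, those of acinar and duct markers are -1.0 and -0.30, and that of stellate, fibroblast and mural markers is 0.26.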

How the data were processed

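The deposited values are linear intensities per probe set. MAS5 is named per the submitters' processing notes, and no version, scaling target or detection calls are given in the sources used here. Means trimmed by 2% at each end were 99.3 on both arrays, and no further normalization was applied. Of 45037 probe sets, the platform annotation, which can be old, paired 34945 with 1 gene, 932 with several and left 9160 unnamed. All 60 members matched RefSeq (GRCm38.p6) by Entrez identifier with no change of symbol. Across the 10450 genes above the floor on both arrays, log2 signals correlated with r = 0.97, a correlation across genes. With 1 array per group the number of arrays limits the precision, and no p-value or standard error was computed.

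The members and lists were chosen with earlier results of these data known. Named were all measured members and, from each pathway or marker list, the genes at 2-fold or more (at most 6) or else the largest ratio in each direction. Other list genes in the text, those under the floor included, were chosen after their values were seen. The ratios were computed with Python 3.11.15, pandas 2.3.3 and numpy 2.4.6, loess with statsmodels 0.14.6, and the counting was tested on simulated data. The alternatives were other floors, scalings, probe set choices and size limits.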

Additional observations from a re-analysis of the deposited data

How the results depend on the processing

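The counts followed the floor and the size limit. With the floor at the 30th percentile, 8 of 50 matrix genes were at least 2-fold lower and 1 higher, against 4.18% and 4.52% of all 15370 genes (matrix probe sets 10 and 5), the fibrillar median exceeded that of basement membrane genes by 0.23, and the pathway lists had 10 genes lower and 9 higher. With the floor at the 70th percentile, 2 of 13 matrix genes were lower and 0 higher, against 0.783% and 1.17% of all 8175 genes. Of matrix probe sets 2 were lower, and the pathway lists had 2 lower and 3 higher. With a pseudocount of 16 in place of a floor, 3 of 60 matrix genes were lower, against 1.10% of all 18193 genes. None was higher, against 1.44%. Of matrix probe sets 3 were lower and 2 higher, and 2 pathway genes were lower. With the mean over probe sets, the pathway lists had 4 genes lower and 7 higher, against 1.16% and 1.61% of all 11857 genes. At the main settings they had 4 lower and 5 higher. At a limit of 1.5-fold, 5 matrix genes were lower and 2 higher, against 6.22% and 6.94% of all 11802 genes, 8 probe sets were lower and 2 higher, and 12 pathway genes were lower and 9 higher. At a limit of 3-fold, 0 of 26 matrix genes were lower, against 0.144% of all genes. At that limit 0 probe sets and 0 pathway genes were lower, and 1 pathway gene was higher. Shares over all probe sets were not computed under these alternatives, so their probe set counts have no background beside them. By construction the settings admit more or fewer weak signals, shrink ratios (the pseudocount), average the probe sets of a gene or change the size limit. The part of each in these moves was not tested.

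Lama3 and Lama5 stayed at least 2-fold lower under all 9 alternatives for which they had a ratio, from -1.0 to -1.21 and from -1.04 to -1.19 on the log2 scale. Not all of these could change the value, as each gene had 1 probe set above the floor. The 30th percentile floor, the probe set choices and the use of genes above both floors left both ratios as they were by construction. The 70th percentile floor did so for Lama5. Dcn ran from -1.12 to -1.64 under 7 alternatives. Col3a1 was at -0.69 without a floor and at least 2-fold lower under the 7 others for which it had a ratio. The probe set choices could not change the values of Dcn and Col3a1. The 30th percentile floor and the use of genes above both floors could not change that of Col3a1. The median of the matrix genes ran from -0.05 to -0.30. Using only genes above the floor on both arrays was an alternative chosen after seeing the data. No paired analysis was possible because each group has 1 array.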
